A study of Homo sapiens with 2 samples.

Results

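The keratins described here are those of squamous and basal epithelium, namely the stress keratins KRT6A, KRT6B, KRT16 and KRT17, the basal keratins KRT5, KRT14 and KRT15, and the suprabasal keratins KRT4 and KRT13. Their transcripts were compared between H6c7 cells made to carry a K-ras oncogene and the parental H6c7 line, which was derived from human pancreatic duct epithelium and immortalised with papillomavirus genes that both lines share. Members were chosen as every probe set, the group of short probes that reports 1 transcript on the array, whose annotation names exactly 1 gene and that gene is in the list. By this rule 6 of the 9 genes were found, with 7 of the 22283 probe sets, among 11963 genes named in the same way. KRT6A, KRT6B and KRT17 are not analysed here, so KRT16 alone stands for the stress keratins. Each line was measured on 1 Affymetrix U133A array. The labels name neither a vector control nor the K-ras allele, and whether 1 clone or a pool was used is not stated in them.

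Keratins are the intermediate filament proteins of epithelial cells. Each filament is built from pairs of an acidic type I chain, whose genes lie on chromosome 17 apart from KRT18, and a basic type II chain, whose genes lie on chromosome 12. KRT5 and KRT14 form the pair of the proliferating basal layer of stratified epithelium, KRT15 is a further type I keratin of basal cells, and KRT4 and KRT13 pair in the upper layers of internal squamous epithelium such as the oesophagus. KRT6 isoforms, KRT16 and KRT17 are called stress keratins because they are induced in epidermis by wounding and in psoriasis. Normal pancreatic ducts are a simple epithelium that is known for KRT7, KRT8, KRT18 and KRT19.

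Signals are linear intensities in arbitrary units, taken as already scaled by the authors because the trimmed means of both arrays were equal, though the scaling is not stated. The floor, below which a signal was treated as not measured, was the higher of the 2 array medians, 46.9. Where 1 of the arrays was below it, the other signal over the floor gives a bound, written as at least N-fold. Genes count as higher or lower from a 2-fold ratio upward. With 1 array per line there is no replicate error, so no difference below was tested and each describes these 2 arrays. The median signal was 46.9 on the K-ras array and 43.9 on the parental array, and 11109 and 10791 probe sets reached the floor on them. As a technical yardstick, log2 ratios of different probe sets for 1 gene had a pooled SD of 0.46 over 1671 genes. Only probe sets at or above the floor on both arrays entered it.

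Promoters were available for KRT5 and KRT4, both type II genes of the chromosome 12 cluster. They are shown because no other member had a promoter available here. KRT5 was far above the floor on both arrays and KRT4 below it on both. The sequences are RefSeq's (GRCh38.p14), both on the minus strand, 5′ to 3′, from 250 bases before to 50 bases after the gene's start, at chr12:52520345-52520644 for KRT5 and chr12:52814067-52814366 for KRT4. Capitals mark matches to the motifs described next.
KRT5: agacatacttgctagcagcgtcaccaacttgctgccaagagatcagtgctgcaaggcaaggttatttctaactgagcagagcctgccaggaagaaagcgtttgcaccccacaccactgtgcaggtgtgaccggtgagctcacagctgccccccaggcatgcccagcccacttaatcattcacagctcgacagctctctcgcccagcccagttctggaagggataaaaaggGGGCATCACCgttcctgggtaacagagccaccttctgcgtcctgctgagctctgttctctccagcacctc
KRT4: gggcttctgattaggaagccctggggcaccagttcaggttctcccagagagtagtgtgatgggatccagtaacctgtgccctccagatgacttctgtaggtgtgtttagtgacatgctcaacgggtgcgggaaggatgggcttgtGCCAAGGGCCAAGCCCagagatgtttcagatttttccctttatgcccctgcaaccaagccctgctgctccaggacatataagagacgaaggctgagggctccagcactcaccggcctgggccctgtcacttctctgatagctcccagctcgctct

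Both strands of these windows were searched for the letters of 5 motifs. The AP-1 motif TGANTCA, the SP1 motif GGGCGG and the TATA motif TATAAA had 0 matches in either window, and they occur in 7.71%, 45.0% and 11.5% of all 35116 promoters of this length. The AP-2 motif GCCNNNGGC, present in 23.2% of promoters, had 1 match in KRT4, starting 105 bases before the gene's start, and 0 in KRT5. The kappa B motif, GGG and CC with any 5 bases between them, present in 58.7%, had 1 match in KRT5, 20 bases before the start, and 2 in KRT4 that overlap each other and the AP-2 match. These are matches of letters and no binding was measured.

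Of the stress keratins, KRT16 was far higher in the K-ras line. KRT16 is a type I keratin that is scarce in resting interfollicular epidermis. The signal was 674 in the K-ras line and 45.4 in the parental line, which lies at 0.968 times the floor. KRT16 was thus at least 14.4-fold higher in the K-ras line, a log2 bound of 3.84, and the quotient of the signals themselves was 14.8. Over all 7693 measured genes, 767 (9.97%) passed 2-fold on the higher side, 102 of them (1.33% of all measured) from a parental signal under the floor. Of all measured genes 4, KRT16 among them, had a ratio or bound at least as high as that of KRT16, a share of 0.052%. The value rests on 1 probe set, and RefSeq lists 6 pseudogenes named after KRT16, whose transcripts this probe set might also detect. The size of the bound follows the floor: with the floor at the 70th percentile it was 2.47, and with the floor as a pseudocount the log2 ratio was 2.96.

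**Figure D1:**
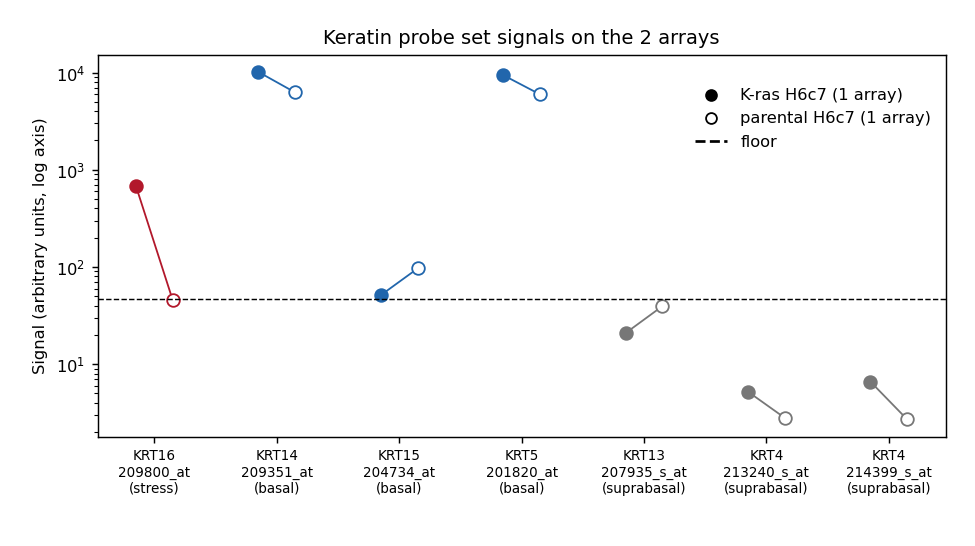
Signal of each of the 7 probe sets (log axis, arbitrary units) on the K-ras array (filled points, left) and the parental array (open points, right), with the floor of 46.9 dashed. KRT16 lies at 674 in the K-ras line against 45.4 in the parental line, KRT5 and KRT14 lie far above the floor in both lines, and KRT4 and KRT13 lie below it in both.

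The basal pair KRT5 and KRT14 had strong signals in both lines and moderately higher ones in the K-ras line, under 2-fold. KRT14, the type I partner, reached 10134 in the K-ras line and 6237 in the parental line, more than 100 times the floor on either array. KRT5, the type II partner, reached 9397 in the K-ras line and 5960 in the parental line. The ratios of the partners were nearly equal, 1.62-fold for KRT14 and 1.58-fold for KRT5, and their log2 ratios of 0.70 and 0.66 differed by less than the pooled SD between probe sets of 1 gene. Each has 1 named probe set. The highest signal of any probe set was 13801 on the K-ras array and 11552 on the parental array, and whether the scanner's range compressed these strong signals was not tested.

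KRT15, the other basal keratin, went the opposite way to that pair. It also marks stem cells of the hair follicle bulge. The signal was 51.3 in the K-ras line and 96.4 in the parental line, only 1.09 and 2.06 times the floor. KRT15 was 1.88-fold lower in the K-ras line, a log2 ratio of -0.91, short of the 2-fold threshold that 14.4% of measured genes passed on the lower side. Under median centring its log2 ratio was -1.01, past that threshold. With the floor at the 70th percentile KRT15 was not measured on either array. Its log2 ratio lay 1.61 below that of KRT14 and 1.57 below that of KRT5. These gaps are 3.53 and 3.44 times the pooled SD between probe sets of 1 gene. That SD is of 1 ratio, so it understates the spread of a difference between 2 ratios.

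The suprabasal keratins were not measured in either line. KRT13, the type I partner, had signals of 20.9 in the K-ras line and 39.5 in the parental line. KRT4, the type II partner, had signals of 5.20 and 6.60 in the K-ras line and of 2.80 and 2.70 in the parental line in its pair of probe sets. All 6 values are below the floor, so no ratio is given in the main setting. With the floor at the 30th percentile KRT13 was measured, at a log2 ratio of -0.92, and KRT4 was not.

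By class, KRT16 as the one named stress keratin had a log2 bound of 3.84, the basal keratins had a median log2 ratio of 0.66 over 3 genes, and the suprabasal class has no value. The 4 measured members had a median of 0.68, against 0.10 for all 7693 measured genes. Of the 4, 1 was higher and 0 were lower by at least 2-fold in K-ras cells, beside 9.97% higher and 14.4% lower over all measured genes. The bound of KRT16 exceeded the ratio of KRT14, the type I keratin gene before it on chromosome 17, by 3.14 on the log2 scale, or 8.84-fold, and that of KRT5 by 3.19. These gaps are 6.89 and 6.99 times the pooled SD between probe sets of 1 gene, which holds no difference between cultures. That SD is of 1 ratio measured on both arrays, so it understates the spread of a gap that involves a bound. The gap also follows the floor. The excess of KRT16 over the basal median was 1.79 with the floor at the 70th percentile and 2.31 as a pseudocount.

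**Figure D2:**
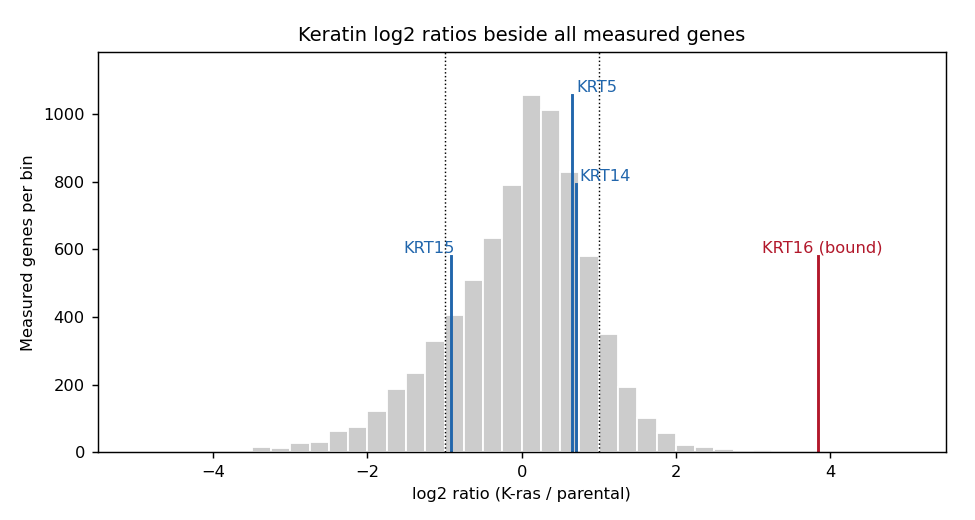
Number of measured genes per bin of 0.25 in the log2 ratio of K-ras over parental signal (grey bars, 7693 genes), with the 4 measured keratins as coloured lines (red for stress, blue for basal) and the 2-fold thresholds dotted. KRT16, a bound at 3.84, lies in the upper tail, while KRT5, KRT14 and KRT15 lie inside the thresholds.

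Of 45 further keratin genes looked up, 26 were named, 12 were measured, 0 were higher and 1 was lower by at least 2-fold in K-ras cells, near the shares of 9.97% and 14.4% over all measured genes. The lower one was KRT19, the small type I keratin of duct epithelium, at 1644 in the K-ras line and 4511 in the parental line, a 2.74-fold lower level. KRT8, the type II keratin of simple epithelium, was 1.84-fold higher, and its partner KRT18 was 1.30-fold higher, both on probe sets of the _x_at kind, which may also pick up related transcripts. KRT7 had a log2 ratio of -0.32. KRT10, the type I keratin of differentiating epidermis, had log2 ratios of 0.16 to 0.86 in 3 probe sets, while its partner KRT1 was below the floor on both arrays. Of 11 named hair keratins 2 were measured, only on the K-ras array and close to the floor, with a highest signal of 62.7.

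In chromosomal order among keratin genes, KRT13, KRT15, KRT19, KRT9, KRT14, KRT16 and KRT17 follow each other in the type I cluster. Of these, KRT19 and KRT16 passed 2-fold, at a log2 ratio of -1.46 and a bound of 3.84. KRT15, KRT9 and KRT14 had -0.91, a bound of -0.48 and 0.70, and KRT10 and KRT8, which lie elsewhere, had 0.86 and 0.88. On chromosome 12, 13 of 27 keratin genes were named, 6 were measured and 0 passed 2-fold. On chromosome 17, 19 of 28 were named and 10 were measured, of which 1 was higher and 1 lower by at least 2-fold. The shares over all measured genes were 9.97% higher and 14.4% lower.

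**Figure D3:**
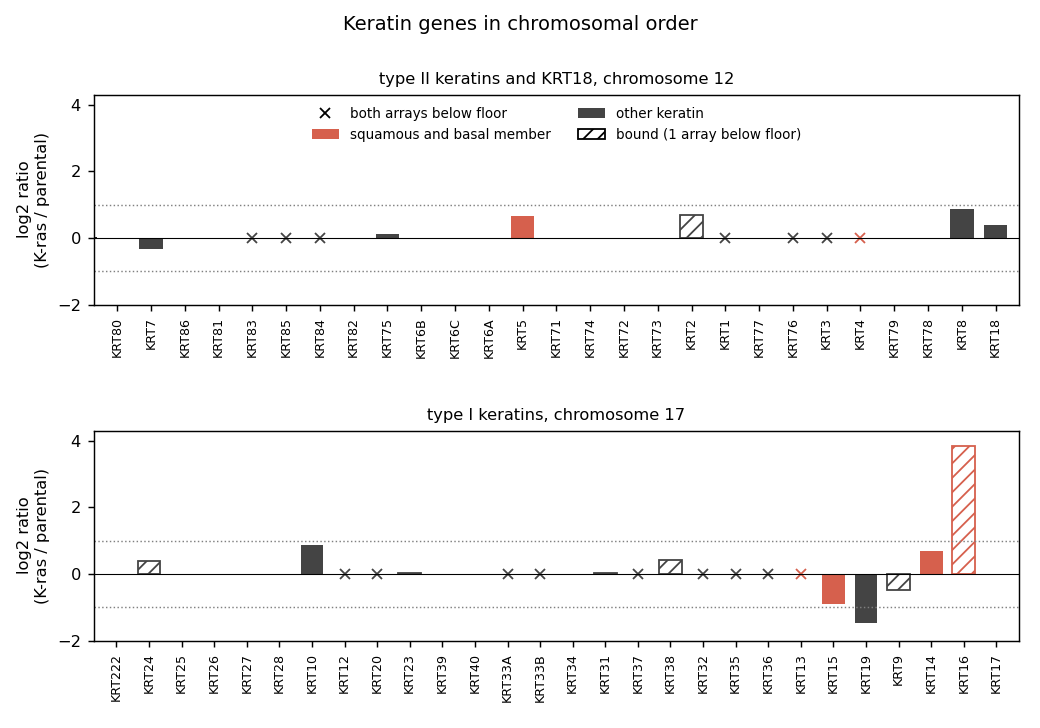
Log2 ratio of K-ras over parental signal for each keratin gene in its order along chromosome 12 (top) and chromosome 17 (bottom), members in red, other keratins in grey, hatched bars for bounds, crosses for genes below the floor on both arrays, blanks for genes without a value here, and dotted lines at 2-fold. KRT16 reaches a bound of 3.84 beside KRT14 at 0.70, and KRT15 and KRT19 point down at -0.91 and -1.46.

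Among other genes known from activated keratinocytes, 14 of 18 named genes were measured, of which 7 were higher by at least 2-fold in the K-ras line and 1 was lower, with a median log2 ratio of 1.07. Over all measured genes 9.97% were higher and 14.4% lower, with a median of 0.10. This list and those that follow were chosen with earlier results of these data known, so their counts are descriptions and not tests. The elastase inhibitor PI3 was 12.2-fold, the cornified envelope precursor SPRR1B was 6.52-fold, the growth factor HBEGF 5.47-fold and the cytokine IL1B 5.04-fold higher. A second PI3 probe set had a log2 bound of 4.02. The lower one was the cytokine IL1A, at 2.06-fold. The calcium-binding proteins S100A8 and S100A9 had log2 ratios of 0.78 and 0.66, under 2-fold. TGM1, which crosslinks the cornified envelope, was below the floor on both arrays, and IVL, a substrate of that crosslinking, had signals of 53.5 in the K-ras line and 36.7 in the parental line.

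Of 39 named transcription factors known to act on squamous and basal keratin genes 30 were measured, 13 of them higher and 6 lower by at least 2-fold in K-ras cells, with a median log2 ratio of 0.58, beside shares of 9.97% higher and 14.4% lower over all measured genes. The highest were CEBPB at 4.58-fold, KLF5 at 4.38-fold, KLF4 at 4.27-fold and the AP-1 subunit JUND at 3.94-fold, while a second KLF5 probe set had a log2 ratio of 1.06 and a second KLF4 probe set a log2 bound of 1.16. The AP-1 subunits JUNB and FOSL1 were 3.18-fold and 2.80-fold higher, and TFAP2A, the factor AP-2 alpha, was 2.83-fold higher. FOS had a log2 ratio of 0.07. The lowest were SP3 at 6.20-fold, EHF at 3.30-fold, NR3C1, the glucocorticoid receptor, at 3.07-fold and HMGA2 at 2.98-fold lower. The K-ras signals of SP3 and EHF were 55.5 and 54.7, close to the floor. Other NR3C1 probe sets had log2 ratios or bounds of -1.55 to -0.84. NFE2L2, known to induce KRT16 and KRT17 in human keratinocytes, stood at 190 in the K-ras line and 462 in the parental line, 2.43-fold lower. SOX2 was below the floor on both arrays.

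The list of keratin filament linkers and partners holds genes that tie filaments to junctions and also the signalling partners SFN, YWHAZ and TRADD. Of 15 measured among 18 named, 4 were higher and 4 lower by at least 2-fold in K-ras cells, with a median log2 ratio of 0.47, beside 9.97% higher and 14.4% lower over all measured genes. PLEC, the linker at hemidesmosomes, was 2.82-fold higher, EPPK1, a keratin-binding plakin, 2.39-fold on an _x_at probe set and the desmosomal plakophilin PKP3 2.11-fold. Another PKP3 probe set had a log2 ratio of 0.87, under 2-fold. PNN was 3.20-fold higher on an _x_at probe set, by which it counts among the higher genes. The rest of its probe sets went the opposite way, at a log2 bound of -2.28 and a log2 ratio of -2.15. DSP, which ties keratin filaments to desmosomes, stood at 507 in the K-ras line and 1511 in the parental line, 2.98-fold lower. DST, whose epithelial form ties them to hemidesmosomes, was 10.7-fold lower, with a K-ras signal of 52.3 that lies close to the floor and its other measured probe sets at log2 bounds of -2.77 to -1.02. The linker MACF1 was 4.14-fold lower, with its other probe sets at log2 ratios of -2.27 to -1.25. PKP2 was 2.35-fold lower, with another PKP2 probe set at a log2 bound of -0.16. Of other intermediate filament genes, VIM, the mesenchymal one, had a log2 ratio of 0.39, and the nuclear lamin LMNB1 was at least 5.21-fold lower.

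Both lines carried transcripts of basal squamous and of duct epithelium. All 5 named basal squamous markers were measured, NGFR only on the K-ras array and close to the floor, at 48.7. ITGB4 was 3.40-fold higher and DSC3 2.05-fold lower in the K-ras line. Other measured ITGB4 probe sets had log2 ratios of 2.50 and 2.53, and another DSC3 probe set had -0.86, under 2-fold. Of 10 named duct and simple epithelium markers 9 were measured, CFTR being below the floor. MUC1 was measured only on the K-ras array, at 58.3, and CA2 only on the parental array, at 267. By at least 2-fold, 4 of the 9 were lower and 0 higher in K-ras cells, beside 14.4% lower and 9.97% higher over all measured genes. These were CA2, at least 5.69-fold, KRT19, EPCAM at 2.08-fold and SOX9 at 2.05-fold, with another SOX9 probe set at a log2 ratio of 0.04. In RNA of whole cultures, fewer cells of a kind and less RNA per cell cannot be told apart, and the part of cell composition in the keratin ratios was not tested. Of 19 named markers of acinar, endocrine, fibroblast, endothelial and blood cells, 6 were measured and 0 passed 2-fold, with highest signals of 94.6 in the K-ras line and 131 in the parental line.

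**Figure D4:**
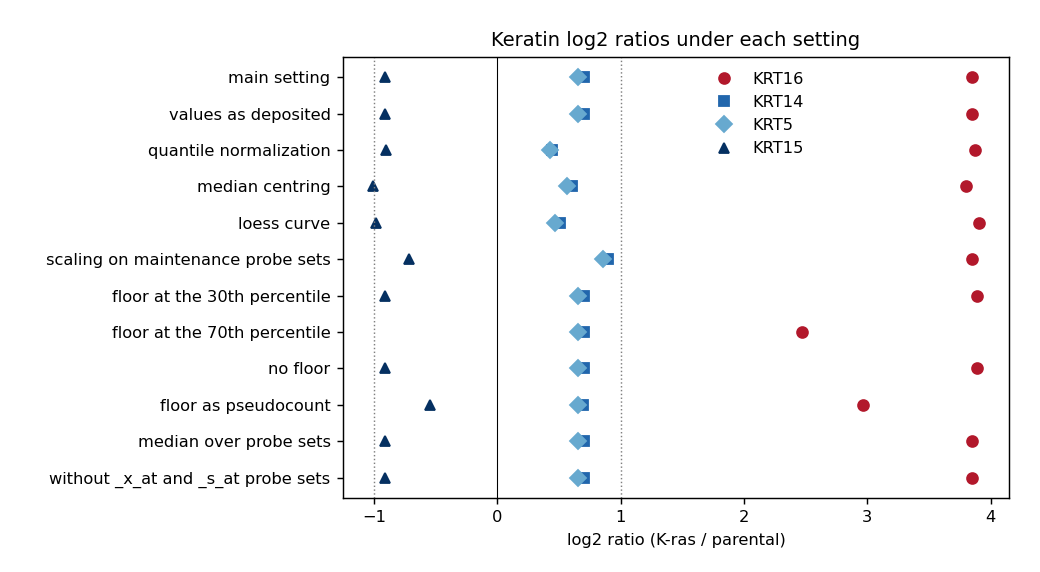
Log2 ratio of K-ras over parental signal for KRT16, KRT14, KRT5 and KRT15 under the main setting and 11 alternatives, with 2-fold thresholds dotted. KRT16 ranges from 2.47 to 3.90, KRT14 and KRT5 stay between 0.43 and 0.90, and KRT15, which has no value with the floor at the 70th percentile, lies between -1.01 and -0.55.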

How the data were processed

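RNA of 2 cell lines was hybridised to Affymetrix U133A arrays, 1 per line, per the labels. The authors deposited 1 linear intensity per probe set. The software behind it is not stated in these sources, and both columns had a mean of 150.06 after leaving out the lowest and highest 2%, so they were taken as already scaled. They were set to the same trimmed mean. The 68 control probe sets were left out of the floor and of the gene values, but not of the trimmed means. The array's annotation gives 1 symbol for 19071 probe sets, several for 1043, and 2169 are unnamed here, and 19059 of the 19071 matched RefSeq by gene number. Of several probe sets of a gene, that with the highest mean log2 signal was used.

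Named genes are all members, up to 4 genes per direction of each list with the largest ratios of at least 2-fold, direct partners and regulators of keratins, and further genes shown for their role and chosen after their values were seen. Genes nearest KRT16 in signal are not given, since signals of different probe sets are not comparable. Members and lists were chosen with earlier results of these data known. Alternatives were other scalings, floors, rules for several probe sets and a 3-fold threshold. The code that computes the ratios was checked on simulated arrays. Genes changed there had parental signals well above the floor, so changes from a parental signal near or below it were not covered. Precision is limited by the number of arrays. Python 3.11.15, numpy 2.4.6, pandas 2.3.3, statsmodels 0.14.6 and matplotlib 3.10.9 were used.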

Additional observations from a re-analysis of the deposited data

How the results depend on the processing

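KRT16 stayed at least 2-fold higher in the K-ras line under each of the 11 alternatives to the main setting, and passed 3-fold too. KRT5 and KRT14 stayed under 2-fold higher under the same 11. The rules for several probe sets could not move these genes, since each has 1 probe set, not of the _x_at or _s_at kind. The KRT16 bound was also 3.84 as deposited and with maintenance scaling, since the floor there is the K-ras array's own median. The KRT16 value, which is the stress keratin median, was a log2 bound of 2.47 with the floor at the 70th percentile and a log2 ratio of 2.96 with the floor as a pseudocount, and its excess over the basal median was 1.79 and 2.31 there. Both follow from the higher value set for the parental signal. With no floor 2 members were at least 2-fold higher, KRT16 and KRT4, where KRT4 had signals of at most 6.60 and a log2 ratio of 1.29. KRT13 had -0.92 with no floor and with the floor at the 30th percentile. Under median centring 1 member, KRT15, was at least 2-fold lower. Of all measured genes, 1363, 451, 2428 and 469 were at least 2-fold higher with the floor at the 30th percentile, at the 70th percentile, with none and as a pseudocount, 460 without _x_at and _s_at probe sets, and 185 at 3-fold. At least 2-fold lower were 632 with the floor at the 70th percentile, 1797 with none, 721 without those probe sets, and 480 at 3-fold. With 100 maintenance probe sets as the base of the scaling, the median log2 ratio over measured genes was 0.24, against 0.10. This setting gave 1093 genes higher and 844 lower, against 767 and 1109, and put KRT5 at 0.85 and KRT14 at 0.90. Quantile normalization put both lowest, at 0.43 and 0.44. No paired analysis was possible because each line has 1 array, and no replicate could be left out.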
